A study of Mus musculus with 36 samples.

Results

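The comparison described here follows LncCPR-knockout mouse embryonic stem cells over the first 3 days after the cytokine LIF was taken away. It sets 3 knockout libraries of day 3 against 3 knockout libraries of day 0, which are 6 of the 36 libraries of the series and were chosen by their genotype and time labels alone. The control group is AB2.2, an established line of mouse embryonic stem cells, and the LncCPR-KO group is AB2.2 from which the long noncoding RNA gene LncCPR was deleted with Cas9 and a pair of guide RNAs, 1 on each side of the gene, on constructs that also carried GFP. Edited cells were sorted singly and expanded, and how many clones stand behind the libraries is not stated. Day 0 cells of either line were undifferentiated cells of cultures kept in serum and LIF, and day 3 samples were whole embryoid bodies, aggregates of differentiating cells hung in drops of fresh medium without LIF. Total RNA was sequenced. LncCPR is not the name of any gene entry, so its deletion cannot be checked on its own transcript. Replicate libraries are not described as separate cultures, so p-values measure the spread between libraries, which may be technical.

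LIF acts through its receptor and the kinase JAK to activate the transcription factor STAT3, and this signal holds mouse embryonic stem cells in the naive state, a counterpart of the epiblast before implantation. When LIF is removed, the naive network of Klf4, Tbx3, Esrrb, Tfcp2l1 and Zfp42 is shut down, and the cells pass through a formative and then a primed state that resembles the epiblast around implantation. The formative state is known for Fgf5, Otx2, Pou3f1 and the DNA methyltransferases Dnmt3a and Dnmt3b, while Pou5f1 and Sox2 stay on in both states. Primitive streak genes such as T and Mixl1 come later, when mesoderm and endoderm are laid down.

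Levels are FPKM, fragments scaled to transcript length and to the number of fragments in the library, of 37561 gene entries. The 6 knockout libraries summed to between 339064 and 394808 FPKM, held 11965 to 12133 genes above 1 FPKM and had relative depths of 0.966 to 1.52 times that of control replicate 1 at day 0. Absolute depth is unknown. Replicates correlated across genes at r of 0.988 to 0.989 at day 0 and 0.978 to 0.984 at day 3, and libraries of different days at 0.901 to 0.909; genes are not independent replicates. The 2 days come from separate tables, so a shift of scale between tables cannot be told apart from the day. Every call was therefore repeated after median-ratio rescaling, which sets the typical gene to the same level in each library. The change of a gene is the difference in mean log2(FPKM + 1), day 3 minus day 0, so that 1 stands for a 2-fold higher value. The pseudocount of 1 understates the change of low genes. Calls are limma tests with a Benjamini-Hochberg adjusted p under 0.05 over all genes that averaged at least 1 FPKM across the 6 libraries.

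Of 12239 genes tested, 2419 were higher (19.8%) and 3432 were lower (28%) at day 3, together 5851 genes (47.8%). Counts of called members in the gene lists below are to be read against these shares. Among them 651 rose and 787 fell by more than 2-fold, and 36 rose and 44 fell by more than 8-fold. The 3 libraries of day 3 lay wholly outside the range of the 3 of day 0 for 56.9% of the genes, above it for 23.9% and below it for 33%. Rescaling gave 3017 higher (24.7%) and 3097 lower (25.3%), 50% in all, and 5510 genes were called in the same direction both ways. Genes higher at day 3 thus made up 41.3% of the calls as deposited, 49.3% after rescaling and 51.6% when libraries were set to equal sums, and the median change of all genes went from -0.07 to 0.01 and 0.03. With so many genes called, the balance of higher against lower genes depends on the scale. The plot of change against abundance shows that large changes occurred at low and at high expression.

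**Figure D1:**
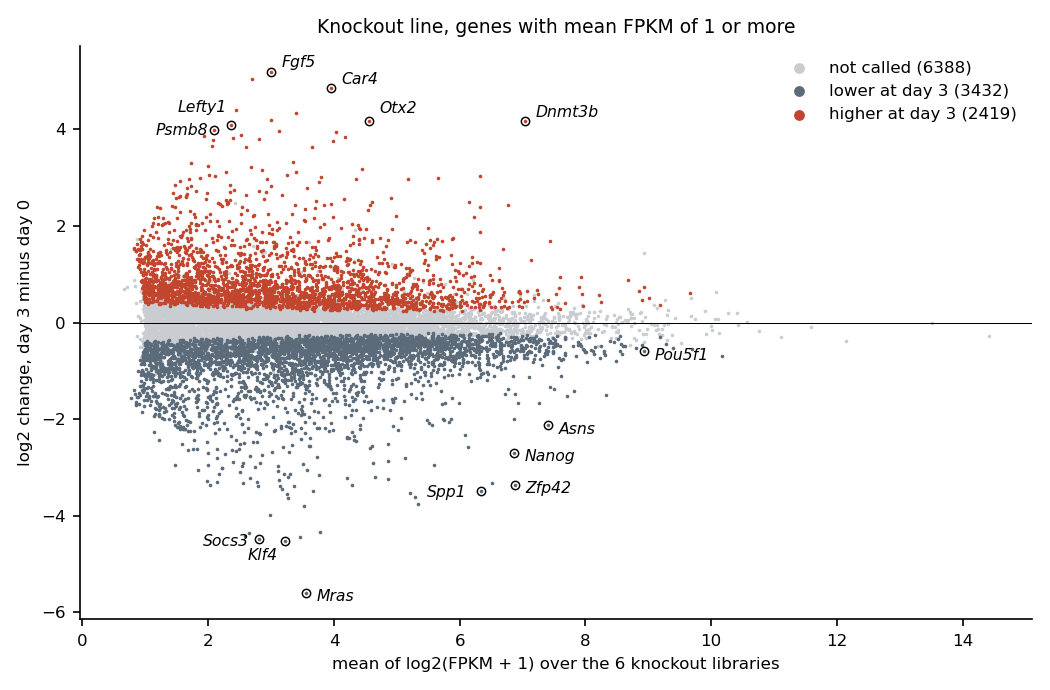
Each point is 1 of the 12239 genes tested in the knockout line, with its mean log2(FPKM + 1) over the 6 libraries on the x axis and its log2 change from day 0 to day 3 on the y axis. Red points are the 2419 genes called higher, dark points the 3432 called lower, and ringed genes are named; Fgf5 is at the top with 5.2 and Mras at the bottom with -5.60.

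Naive-state genes fell almost without exception. Of 18 naive-state genes, all tested, 16 fell and 1 was called higher, with a median change of -3.14 against -0.07 over all genes. Mras, a small GTPase of the Ras family, went from 86.5, 80.5 and 77.0 FPKM to 0.616, 0.856 and 0.627 FPKM (change -5.60, SE 0.10, adjusted p = 3.63e-08), the largest fall that the naming rule picked out. Klf4, a zinc finger factor of the naive network, was at 45.1, 42.4 and 43.4 FPKM at day 0 and at 0.935, 1.02 and 0.851 FPKM at day 3 (change -4.53, SE 0.10, adjusted p = 3.63e-08). In these genes the day 3 libraries were low without exception, and the groups did not overlap. Tbx3, a T-box factor, fell from 46.1, 51.1 and 52.9 FPKM to 1.28, 1.3 and 1.5 FPKM (change -4.43, SE 0.10, adjusted p = 4.65e-08). Tfcp2l1, listed as Tcfcp2l1, fell from 60.3, 62.3 and 60.2 FPKM to 1.73, 2.09 and 2.41 FPKM (change -4.34, SE 0.11, adjusted p = 5.24e-08). Both ended between 1 and 3 FPKM in all 3 libraries. Zfp42, also known as Rex1 and a common naive-state reporter, began much higher, at 391, 396 and 347 FPKM, and kept 36, 42.4 and 30.2 FPKM at day 3 (change -3.36). Klf2 and Pecam1 fell least among the called members, with changes of -1.80 and -0.89.

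A single naive gene stood against the list. Esrrb, an orphan nuclear receptor of the naive network, was listed at 0 in all 6 day 0 libraries of both lines, and at 13.0, 15.5 and 12.2 FPKM in the knockout at day 3. An exact 0 in these values can be a failed estimate, and its call as higher is therefore given without a fold. Dppa3, known as Stella, did not pass the test, at 1.11, 1.14 and 1.43 FPKM at day 0 and 1.07, 2.01 and 1.86 FPKM at day 3 (change 0.23, adjusted p = 0.299). Its libraries overlapped and were low on either day. Of the other members, Jam2, a junctional adhesion molecule, went from 144, 152 and 150 FPKM to 9.85, 10.2 and 9.96 FPKM (change -3.77). Prdm14, a zinc finger factor of the naive state and of germ cells, changed by -2.81, and Nr5a2, a nuclear receptor, by -2.47.

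The signalling branch that LIF feeds fell with the naive genes. Of 15 genes listed for LIF and STAT3, 13 fell and 2 rose, with a median change of -1.61, and Klf4, Tfcp2l1 and Gbx2 are also naive-state factors. The receptor subunit Lifr went from 24.6, 27.5 and 24.4 FPKM to 9.15, 10.9 and 11.2 FPKM (change -1.22, SE 0.11, adjusted p = 3.21e-05). Stat3 itself went from 19.5, 20.7 and 23.4 FPKM to 4.50, 6.62 and 4.06 FPKM (change -1.89, SE 0.16, adjusted p = 2.67e-05). Receptor and transducer both fell. Socs3, the feedback inhibitor that STAT3 induces, went from 32.0, 31.8 and 33.1 FPKM to 0.639, 0.657 and 0.201 FPKM (change -4.49, SE 0.14, adjusted p = 1.37e-07). Bcl3, a nuclear IkB protein, and Gbx2, a homeobox factor, changed by -3.06 and -3.14, and the kinases Pim1 and Pim3 by -1.26 and -1.61. The 2 members that rose were Ptpn11, the phosphatase SHP2, and the growth regulator Myc, with 0.28 and 0.66. The call of Myc was lost without day 0 replicate 2 (adjusted p = 0.0557), and that of Ptpn11 without day 0 replicate 1 (0.146) or 2 (0.106) or day 3 replicate 1 (0.112) or 2 (0.0596).

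The promoter of Socs3 is shown because Socs3 fell most among the genes of this branch that are not naive-state factors, and because its promoter was the only 1 of 14 with the letters of a STAT site. The window searched was 250 bases before to 50 after the RefSeq start, and Myc has no entry in the promoter table. TTCNNNGAA, the palindromic core that STAT dimers bind, was searched on both strands. It occurs in 8.3% of the 32851 promoters of the table, once here, 154 bases before the start, and no other motif searched overlapped it. The stretch from chr11:117969502-117969530 (GRCm38.p6, minus strand, RefSeq) reads 5′ to 3′ with the 9 matching bases in capitals:
Socs3 promoter: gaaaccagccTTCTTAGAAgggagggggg
A match is a description of the letters only. Of the 12239 genes tested 8796 (71.9%) had a promoter in the table, and with the rest missing the share of motifs was not compared between genes that rose and genes that fell.

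General pluripotency was lowered and not lost. Of 15 core genes, 9 fell and 4 rose, with a median change of -0.48. Pou5f1, the POU factor OCT4, stayed abundant, at 610, 598 and 585 FPKM at day 0 and 387, 457 and 348 FPKM at day 3 (change -0.60, SE 0.12, adjusted p = 0.00377). Sox2, its partner, went from 182, 170 and 166 FPKM to 113, 120 and 81.9 FPKM (change -0.73, SE 0.14, adjusted p = 0.00294). Both groups were apart, yet either gene stayed abundant in every day 3 library. Nanog fell furthest, from 315, 292 and 282 FPKM to 43.3, 44.0 and 47.5 FPKM (change -2.70, SE 0.09, adjusted p = 1.53e-07). Tdgf1, the Nodal co-receptor Cripto, and Dppa2 changed by -1.51 and -1.28. Lin28a, an RNA-binding protein that blocks let-7 maturation, rose by 0.99, and Utf1, Zfp281 and Zscan10 rose by 0.69, 0.40 and 0.60. Sall4 and Fgf4 did not pass the test, with changes of 0.21 and -0.18.

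Formative and primed genes rose steeply. All 16 listed genes were tested, 14 rose, 2 fell, and the median change was 2.91. Fgf5, the growth factor that marks the post-implantation epiblast, went from 0.400, 0.355 and 0.226 FPKM to 46.6, 44.7 and 51.9 FPKM (change 5.2, SE 0.11, adjusted p = 3.63e-08), the largest rise that the naming rule picked out. Otx2, a homeobox factor of the formative state and later of the forebrain, went from 5.26, 4.13 and 4.37 FPKM to 93.0, 106 and 100 FPKM (change 4.18, SE 0.11, adjusted p = 5.24e-08). Pou3f1, a POU factor also named OCT6, went from 0.766, 0.841 and 0.546 FPKM to 21.1, 20.4 and 19.4 FPKM (change 3.64, SE 0.12, adjusted p = 1.36e-07). For each of these the lowest day 3 library was far above the highest day 0 library. Sall2, Grhl2, Zic2, Sox11 and Lef1 rose by 3.96, 3.02, 2.97, 2.57 and 2.86. Tcf15, a factor seen at the exit from the naive state, fell, with a change of -0.95. The plot of pluripotency genes by library shows the 2 states as an exchange, with tight replicates on either day.

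**Figure D2:**
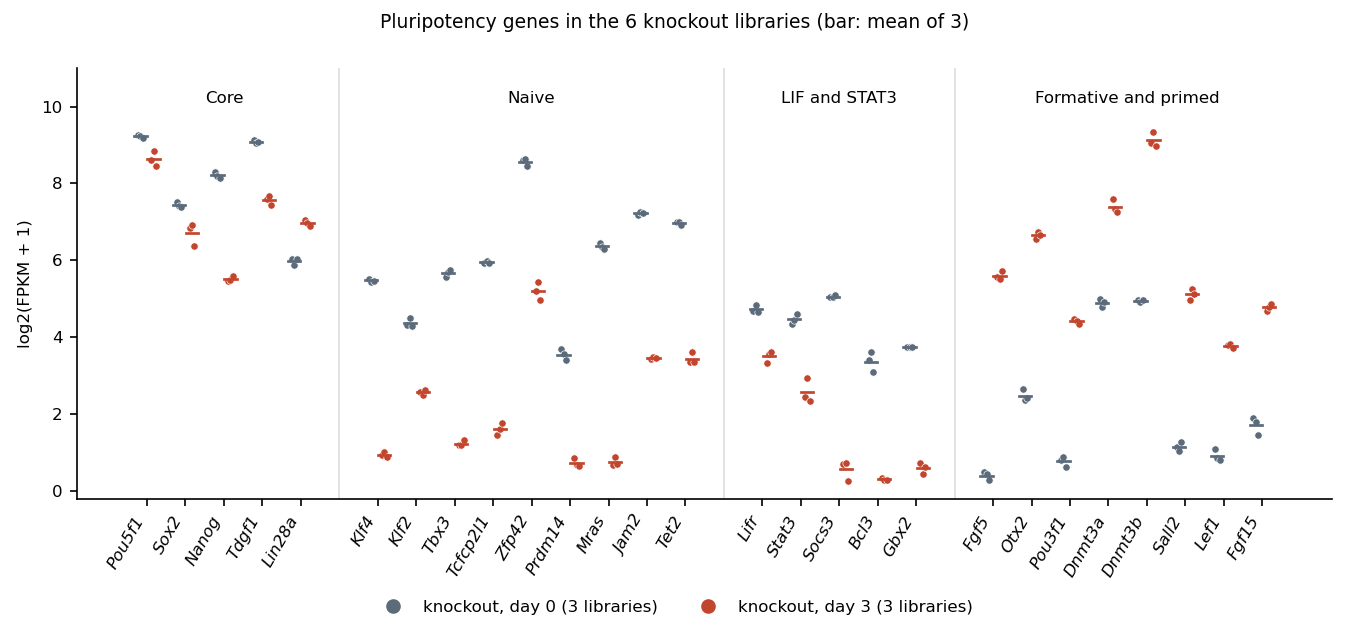
Points are single libraries of the knockout line at day 0 (dark) and day 3 (red), bars are means of 3, and the y axis is log2(FPKM + 1) for 27 genes of 4 lists. Naive and LIF genes drop at day 3, formative genes rise, Lin28a rises, and Pou5f1 and Sox2 move little against their level.

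Among named genes in none of the gene lists, large rises were seen in Enpp2, which makes lysophosphatidic acid (change 5.04), in the carbonic anhydrases Car4 (4.85) and Car14 (4.19), Vrtn (4.39), the kinase Pim2 (4.34) and the neuronal kinesin Kif1a (3.82). Car4 went from 1.68, 2.42 and 1.64 FPKM to 84.6, 86.7 and 76.9 FPKM. Pim2 rose while Pim1 and Pim3 fell, with 1.31, 1.28 and 1.47 FPKM at day 0 and 46.5, 39.9 and 54.5 FPKM at day 3. On the other side, the largest falls outside the naive list included Inhbb, a subunit of activin (-4.42), Stra8, a retinoic acid target of germ cells (-4.36), Calcoco2, an autophagy receptor (-3.63), Stmn2, a microtubule regulator (-3.61), Aqp3, a water and glycerol channel (-3.55), and Spp1, the secreted protein osteopontin (-3.49).

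Nodal, an activin-like ligand of the epiblast, signals through SMAD2 and FOXH1 and induces its own inhibitors Lefty1 and Lefty2. Of 18 genes tested in this pathway, 9 rose (50%) and 7 fell (38.9%), against 19.8% and 28% of all genes tested. The median change was 0.24. Nodal itself went from 9.41, 11.2 and 9.94 FPKM to 12.3, 15.8 and 15.1 FPKM (change 0.46, SE 0.12, adjusted p = 0.0134), and the call was lost without day 0 replicate 1 (adjusted p = 0.0536). Lefty1 went from 0.538, 0.0806 and 0.168 FPKM to 21.0, 21.8 and 18.5 FPKM (change 4.1, SE 0.16, adjusted p = 3e-07), and Lefty2 from 2.78, 2.44 and 2.46 FPKM to 43.4, 45.4 and 40.5 FPKM (change 3.63). The inhibitors thus rose far more than the ligand. The cofactors Foxh1 and Skil rose by 1.68 and 2.18, and the activin type II receptor Acvr2b rose by 1.18. Falls were seen in Inhbb, Tdgf1, Gdf3, the proprotein convertase Pcsk6 (-1.54) and the inhibitory Smad7 (-0.67). The calls of Acvr1b and Smad2 as lower and of Smad4 and Furin as higher were each lost in at least 1 fit that left out a library.

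FGF signalling through ERK pushes cells out of the naive state. Of 15 genes tested, 7 rose (46.7%) and 6 fell (40%), against 19.8% and 28% of all genes tested. The median change was 0.02. The ligand Fgf5 was joined by Fgf15, from 2.77, 2.46 and 1.76 FPKM to 24.8, 26.6 and 28.4 FPKM (change 3.06), and the receptor Fgfr2 rose by 1.15. Among genes induced by ERK, Dusp6, Dusp4 and Il17rd rose by 1.05, 1.60 and 1.37. Etv4, Spry4, Spry2, Egr1 and Fos, which are induced by ERK as well, fell by 2.26, 1.63, 1.19, 1.21 and 2.20 on the log2 scale. Readouts of the same pathway therefore moved in opposite directions.

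In the Wnt pathway, 6 of 13 genes tested rose (46.2%) and 5 fell (38.5%), with a median change of 0.20. The factors Lef1, Tcf7 and Tcf7l1 rose by 2.86, 1.39 and 0.99 and the receptor Fzd7 by 2.44, from 9.84, 8.70 and 9.04 FPKM to 53.8, 54.4 and 55.1 FPKM. The receptor Fzd5 fell by 2.18, the secreted antagonist Sfrp1 by 2.09 and the ligand-processing enzyme Porcn by 1.52. Ctnnb1, beta-catenin, did not pass the test (0.04). Of 10 BMP genes tested, 2 rose and 2 fell, 20% each against 19.8% and 28% of all genes tested. The ligand Bmp4 fell from 10.6, 9.44 and 8.84 FPKM to 1.06, 1.59 and 1.26 FPKM (change -2.21, SE 0.13, adjusted p = 3.78e-06). Its target Id1 did not pass the test (-0.34, adjusted p = 0.158), and Id2 rose by 0.85.

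Genes of the germ layers were hardly present at day 3. Of 16 primitive streak genes only Eomes reached the mean of 1 FPKM needed for a test, and it went from 1.23, 1.59 and 0.869 FPKM to 2.29, 3.33 and 2.89 FPKM (change 0.79, SE 0.17, adjusted p = 0.0048). T, known as Brachyury, was at 0.246, 0.334 and 0.201 FPKM at day 0 and 0.361, 0.333 and 0.0734 FPKM at day 3, and Mixl1 at 0.130, 0.416 and 0.336 FPKM and 0.320, 0.513 and 0.384 FPKM. Both overlapped between days and were too low to test. Fgf8 and Wnt3 were also under the minimum, yet their day 3 libraries lay above those of day 0, at 0.387 to 1.51 FPKM against at most 0.0611 FPKM for Fgf8 and at 0.865 to 1.26 FPKM against at most 0.151 FPKM for Wnt3. The 16 genes summed to 2.61 to 4.26 FPKM at day 0 and 5.94 to 8.94 FPKM at day 3.

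Markers of other cell types an embryoid body can hold were few. In bulk samples, fewer cells of a type and less RNA per cell cannot be told apart. The 13 cardiac mesoderm genes summed to 2.82 to 3.57 FPKM at day 0 and 1.57 to 3.04 FPKM at day 3, and Foxf1a was listed at 0 in all 6 libraries. The 9 endothelial and blood genes summed to 4.99 to 5.25 FPKM at day 0 and 4.91 to 5.49 FPKM at day 3. The 12 fibroblast genes summed to 4.57 to 5.47 FPKM at day 0 and 4.14 to 6.21 FPKM at day 3, and Thy1, the only one tested, did not pass. Of 10 neural genes, Nes, an intermediate filament of neural progenitors, went from 1.51, 1.74 and 1.78 FPKM to 9.75, 9.40 and 7.97 FPKM (change 1.90), while Tubb3 and Ncam1 fell by 1.38 and 2.48 on the log2 scale. Neural genes thus moved both ways, 3 of 5 tested rising and 2 falling, with a median change of 0.86. The whole list summed to 28 to 30.6 FPKM at day 0 and 18.6 to 20.1 FPKM at day 3. Of 5 primitive and visceral endoderm genes tested 3 rose and none fell, the list summing to 242 to 247 FPKM at day 0 and 202 to 260 FPKM at day 3, most of it Apoe, which did not pass. The endocytic adaptor Dab2 went from 1.82, 1.87 and 1.90 FPKM to 7.95, 8.88 and 8.37 FPKM (change 1.71), and the endocytic receptor Cubn rose by 1.38. Gata6, Sox17 and Afp, which define these cells, were under the test minimum. Trophoblast genes summed to 22.5 to 24.8 FPKM at day 0 and 11 to 12.8 FPKM at day 3, and cardiomyocyte genes to 10.5 to 12.2 FPKM and 7.11 to 8.67 FPKM. What part other cell types had in the results above was not tested.

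DNA methylation is rebuilt as the epiblast forms, by the de novo enzymes Dnmt3a and Dnmt3b, and it silences a set of germline genes. Dnmt3b went from 30.5, 29.2 and 30.2 FPKM to 529, 645 and 502 FPKM (change 4.17, SE 0.11, adjusted p = 6.32e-08), and Dnmt3a from 30.8, 26.6 and 29.2 FPKM to 193, 161 and 151 FPKM (change 2.50). Tet2, which oxidizes methylcytosine, went the other way, from 127, 127 and 121 FPKM to 9.21, 11.3 and 9.18 FPKM (change -3.54, SE 0.10, adjusted p = 7.84e-08). Dnmt3a and Dnmt3b thus rose while Tet2 fell, with no overlap in any of the 3 genes. The whole list of methylation writers and erasers was mixed. Of 9 tested, 4 rose (44.4%) and 3 fell (33.3%), with a median change of -0.15. Tet1 and the cofactor Dnmt3l fell by 0.81 and 0.98 on the log2 scale, and the maintenance pair Dnmt1 and Uhrf1 did not pass the test (-0.15 and -0.19).

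Of 18 germline genes known to be held down by methylation, 15 fell and 1 rose, with a median change of -1.15. Dazl, an RNA-binding protein of germ cells, went from 28, 28.2 and 25.1 FPKM to 4.48, 4.14 and 4.35 FPKM (change -2.40), and Rpl10l, a testis ribosomal protein, changed by -2.51. Sycp3, a protein of the synaptonemal complex, stood against the list with 27.9, 27.7 and 25.4 FPKM at day 0 and 67.3, 73.7 and 61.9 FPKM at day 3 (change 1.29). Methylation itself was not measured in these libraries. Of 11 Polycomb genes, 5 fell and 3 rose, among them the core subunit Eed (-1.49) and the accessory factors Mtf2 (-1.34) and Jarid2 (-0.77), while Suz12 did not pass (-0.06). Both tested genes of the 2-cell-like state, Zscan4c and Zscan4d, fell, by 1.66 and 1.83 on the log2 scale.

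Epithelial genes rose as a group. Of 13 junction and keratin genes, 11 rose and none fell, with a median change of 1.22. Cdh1, E-cadherin, already at 48.8, 51.7 and 54.1 FPKM at day 0, reached 123, 115 and 128 FPKM (change 1.22, SE 0.09, adjusted p = 1.04e-05). Esrp1, a splicing factor of epithelia, went from 0.541, 0.375 and 0.606 FPKM to 20.4, 21.4 and 21.5 FPKM (change 3.88). Cldn6, a tight junction claudin, went from 3.69, 3.81 and 3.93 FPKM to 65.0, 73.1 and 64.6 FPKM (change 3.83). Day 3 was high in every library of these genes. Epcam, Krt18 and Cldn7 rose by 2.39, 3.17 and 2.71. On the mesenchymal side, Zeb1, a repressor of Cdh1, went from 14.9, 16.4 and 14.7 FPKM to 0.917, 1.78 and 0.679 FPKM (change -2.98), and Vim, vimentin, changed by -1.98. Mmp2, a collagenase, rose by 0.86, and fibronectin, Fn1, did not pass (0.06).

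Of 11 basement membrane genes 6 fell and 2 rose. Nid1, which links laminin to collagen IV, went from 40.1, 43.4 and 40.3 FPKM to 2.67, 2.99 and 2.72 FPKM (change -3.48), and the laminin chain Lama1 changed by -2.0. Lama5, the chain that replaces it in many epithelia, rose by 1.11, from 9.23, 9.54 and 12.0 FPKM to 23.1, 21.7 and 24.9 FPKM.

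Nuclear genes of mitochondrial respiration were lower at day 3. Of 69 nuclear genes of the respiratory chain, 40 fell and none rose, with a median change of -0.45, and after rescaling 39 fell with a median of -0.38. The 13 tested genes of the mitochondrial genome had a median of -0.32 and none passed the test. In glycolysis 4 of 14 genes rose (28.6%) and 4 fell (28.6%), against 19.8% and 28% of all genes tested. After rescaling 7 rose and 4 fell. The falls were in the glucose transporter Slc2a3 (-1.67), the hexokinases Hk1 (-0.80) and Hk2 (-1.57) and the phosphofructokinase Pfkp, from 151, 155 and 146 FPKM to 28.9, 31.2 and 27.7 FPKM (change -2.33). Rises were seen lower in the pathway, in Pkm2 (0.65) and Ldha (0.60), and in the other phosphofructokinase, Pfkl (0.69). Gapdh and Pgk1 have near-identical pseudogene copies that could share their reads, and their low values are uncertain. Slc16a3, a lactate exporter counted among hypoxia genes, rose from 12.6, 12.0 and 13.6 FPKM to 42.9, 45.5 and 38.7 FPKM (change 1.66). In that list 5 of the 14 genes tested rose and 8 fell, Vegfa by 1.85 on the log2 scale.

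Genes of the integrated and unfolded protein stress responses fell, 10 of 14 with none higher and a median change of -0.59, and after rescaling 10 were lower and 1 higher. Asns, asparagine synthetase and a target of ATF4, went from 359, 367 and 336 FPKM to 77.2, 83.2 and 80.3 FPKM (change -2.13). Atf4 itself changed by -0.68, and Shmt2 and Mthfd2 of mitochondrial one-carbon metabolism by -0.93 and -0.91. Cholesterol synthesis went the other way, with 9 of 17 genes higher and none lower and a median of 0.51, among them Sqle (0.73) and Cyp51 (0.69). Of 15 p53 target genes 7 rose and 1 fell, among them the apoptosis genes Pmaip1 (0.97) and Bbc3 (0.67), and Cdkn1a did not pass (0.22). Cell cycle regulators were mixed, with 5 of 17 tested higher (29.4%), 6 lower (35.3%) and a median of -0.03. The D cyclins Ccnd3 and Ccnd1 moved in opposite directions: Ccnd3 went from 47.5, 43.4 and 41.5 FPKM to 8.23, 7.33 and 8.16 FPKM (change -2.34), and Ccnd1 from 13.4, 13.0 and 13.7 FPKM to 28.2, 27.1 and 25.3 FPKM (change 0.95).

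Imprinted genes, expressed from 1 parental copy, were mostly higher, with 11 of 19 tested called higher (57.9%), 3 lower (15.8%) and a median of 0.51. Of all genes tested, 19.8% were higher and 28% lower. The calls of H19, Dlk1 and Igf2r as higher were each lost in some fits that left out 1 library. The maternally expressed noncoding RNAs of the Dlk1 region moved together, Meg3 from 4.54, 5.10 and 4 FPKM to 23.1, 25.4 and 20.9 FPKM (change 2.12), Mirg by 1.84 and Rian by 1.67. The paternally expressed Peg3 and Snrpn rose by 1.67 and 1.39, and Peg10, Phlda2 and Grb10 fell by 0.64, 0.95 and 0.74 on the log2 scale. Of 60 clustered histone genes 17 rose (28.3%) and none fell, against 19.8% and 28% of all genes tested. Of 78 ribosomal protein genes 10 rose (12.8%) and 8 fell (10.3%), both under the shares of all genes. After rescaling 19 rose and 6 fell.

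The immunoproteasome is a form of the proteasome whose catalytic subunits are replaced by Psmb8, Psmb9 and Psmb10, usually after interferon, to cut peptides for MHC class I. Of 13 genes tested for it and for antigen processing, 10 rose and 1 fell, with a median change of 1.5. Psmb8 went from 0, 0.167 and 0.0631 FPKM to 14, 17.2 and 16.8 FPKM (change 3.98, SE 0.13, adjusted p = 1.53e-07), and Psmb10 from 2.24, 1.86 and 2.03 FPKM to 15.0, 18 and 17.6 FPKM (change 2.55). Irf1, a transcription factor of the interferon response, went from 12.5, 11.1 and 10.4 FPKM to 65.7, 79.6 and 74.0 FPKM (change 2.58). Psmb8 and Psmb10 were near 0 or low at day 0, while Irf1 was already expressed. All of them were higher in each library of day 3. The activator subunits Psme1 and Psme2 rose by 1.96 and 2.36, and the peptide transporter subunit Tap2 and its partner Tapbp by 1.45 and 1.86. B2m, the light chain of MHC class I, did not pass (0.19). Gbp2, an interferon-induced GTPase outside the list, went from 0.0569, 0 and 0.0425 FPKM to 6.62, 7.29 and 5.41 FPKM (change 2.84).

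The promoter of Gbp2 is shown because it holds the letters of an interferon-stimulated response element (GAAA, 2 bases of any kind, GAAA), the site of IRF factors, a motif added to the search after the values were seen. Both strands were searched, 3.44% of the 32851 promoters hold it, and no other motif searched overlapped it. In Gbp2 it lies on the reverse strand 59 bases before the RefSeq start. The search covered 32 genes, namely the antigen-processing list, the genes with the largest differences between lines and 3 genes chosen after their values were seen, among them Irgm1. The motif is in 4 of the 24 promoters found for them, those of Gbp2, Psme1, B2m and Irgm1, and not in those of Psmb8, Psmb10 and Irf1. B2m holds a match 139 bases before its start and did not pass the test of expression. The stretch from chr3:142620594-142620623 (GRCm38.p6, plus strand, RefSeq) reads 5′ to 3′ with the 10 matching bases in capitals:
Gbp2 promoter: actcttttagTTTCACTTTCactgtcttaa
The plot of changes by gene list sets this list beside the others.

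**Figure D3:**
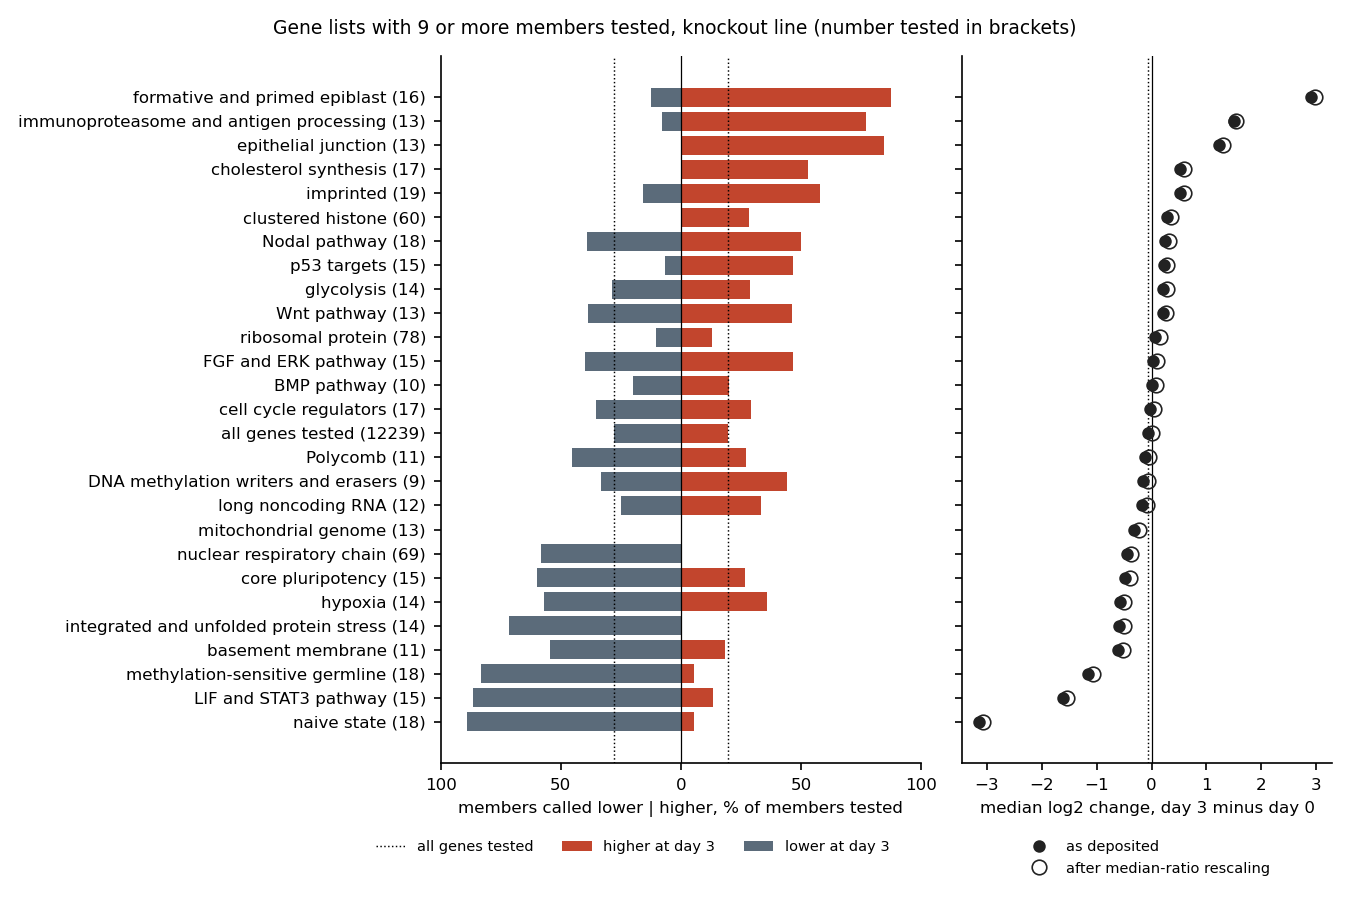
Rows are the gene lists with 9 or more members tested in the knockout line. Bars on the left give the percent of tested members called higher (red) or lower (dark), dotted lines mark all genes, and points on the right give the median log2 change as deposited (filled) and rescaled (open); the medians run from -3.14 for naive genes to 2.91 for formative genes.

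The control line went through the same 3 days, and its values show which of these changes it shared. In the control, 1327 of 12235 genes were higher (10.8%) and 3634 lower (29.7%), 40.5% in all, and after rescaling 25.5% were higher and 26.5% lower, 52% in all. Control replicates 1 and 2 of day 3 stood apart, with 30.1% and 23% of their FPKM in 10 genes against 11.3% to 16.3% in the other 10 libraries, and with mt-Rnr2, a mitochondrial ribosomal RNA, at 38464 and 49728 FPKM against 0 in those 10. Replicate 1 also had the lowest relative depth, 0.637. Their part in the difference between lines was not tested beyond leaving out either one. Naive genes fell in the control too, 17 of 18 with a median of -3.03, and 13 of 16 formative genes rose with a median of 2.29. Klf4 went from 51.5, 50.7 and 54.8 FPKM to 0.629, 0.963 and 0.760 FPKM there, and Fgf5 from 0.128, 0.110 and 0.138 FPKM to 34.5, 40.6 and 44.3 FPKM. For Fgf5 the change in the knockout minus that in the control was 0.02 (SE 0.20, adjusted p = 0.977), and for Klf4 it was 0.38 (SE 0.19, adjusted p = 0.466). Not every member was shared alike. In the naive and in the formative list, 1 member each was called different between lines, and 2 each after rescaling. All of these had a positive difference, knockout minus control. Across the genes tested in both lines, changes correlated at r of 0.872, a description over genes, which are not independent replicates. The plot of the change in either line shows most genes near the line of equal change.

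**Figure D4:**
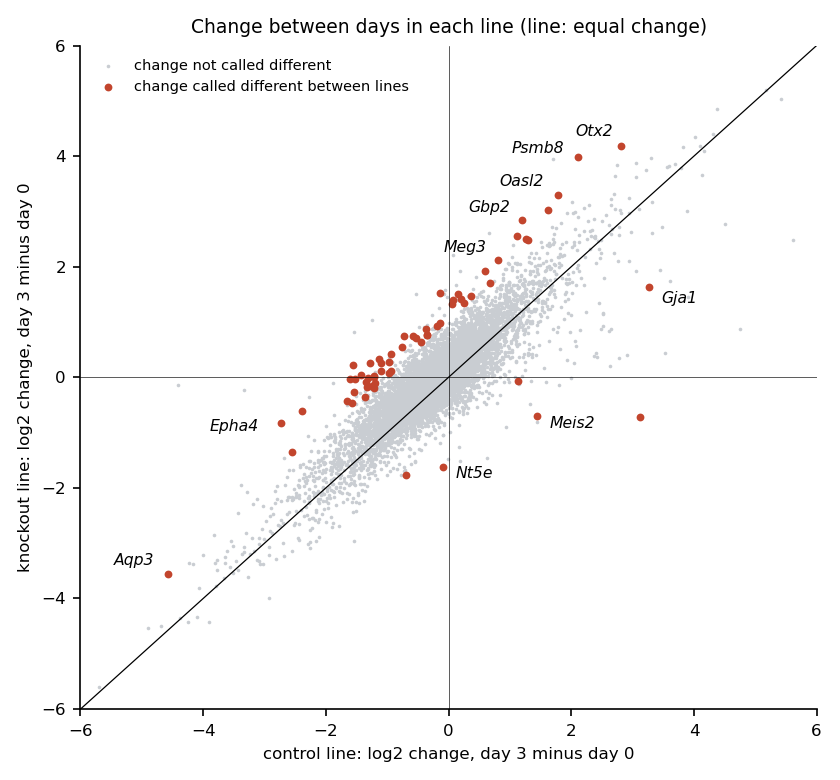
Each point is 1 of the 12095 genes tested in both the knockout fit and the fit of 12 libraries, with its log2 change from day 0 to day 3 in the control on the x axis and in the knockout on the y axis. Red points are genes whose change was called different between lines, such as Psmb8 and Gbp2 above the line of equal change and Gja1 and Meis2 below it.

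The difference between lines was tested as an interaction over 12 libraries. It was called for 68 of 12235 genes (0.556%), with 59 higher in the knockout (0.482%) and 9 lower (0.0736%), and 1407 genes had an unadjusted p under 0.05. After rescaling 367 genes were called (3%), 204 higher (1.67%) and 163 lower (1.33%), and 67 of the 68 were called both ways. The median difference of all genes was 0.16 as deposited and 0.00 after rescaling, so the direction split depends on scale. Single libraries moved the count as well: it was 8 without knockout day 0 replicate 2 and 215 without control day 3 replicate 1. It was 46 without control day 3 replicate 2. Leaving out any 1 of the other libraries of these groups gave counts between these.

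Of the genes whose difference kept its call whichever of the 12 libraries was left out, Psmb8 reached 14, 17.2 and 16.8 FPKM in the knockout and 2.70, 3.72 and 5.05 FPKM in the control at day 3, from under 0.3 FPKM in every day 0 library (difference 1.87, SE 0.25, adjusted p = 0.00715). Gbp2 reached 1.05, 1.66 and 2.21 FPKM in the control (difference 1.64, SE 0.25, adjusted p = 0.0125). Ifi35, an interferon-induced protein, went from 0.919, 1.26 and 1.28 FPKM to 5.38, 4.63 and 5.51 FPKM in the knockout and from 1.41, 1.85 and 1.38 FPKM to 0.957, 2.04 and 1.08 FPKM in the control (difference 1.66, SE 0.25, adjusted p = 0.0125). For these 3 interferon-related genes the knockout libraries of day 3 lay above all control libraries. With a pseudocount of 0.1 the calls of Psmb8 and Gbp2 were lost (adjusted p = 0.152 and 0.0878), and without a filter on low values those of Psmb8, Gbp2 and Ifi35 (0.0619, 0.0659 and 0.0659).

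Other genes fell further in the control than in the knockout. Inpp5d, the lipid phosphatase SHIP1, was at 19.8, 21.4 and 18.5 FPKM and then 18.1, 21.9 and 18.4 FPKM in the knockout, and went from 23.6, 22.7 and 24.2 FPKM to 5.71, 7.27 and 8.19 FPKM in the control (difference 1.58, SE 0.21, adjusted p = 0.00715). Epha4, an ephrin receptor, was lower in the knockout already at day 0, 11.4, 10.5 and 10.3 FPKM against 30.9, 31.3 and 30.3 FPKM, and ended at 4.92, 6.76 and 5.35 FPKM against 3.28, 4.14 and 3.96 FPKM (difference 1.91, SE 0.20, adjusted p = 0.000956). The knockout was below the control at day 0 and above it at day 3, with no overlap on either day. 4930500J02Rik was at or near 0 in all 6 knockout libraries, and its difference of 1.67 (adjusted p = 0.00933) is that of the control alone, from 46.7, 49.5 and 48.0 FPKM to 11.1, 16.8 and 18.5 FPKM. Its call was lost with a pseudocount of 0.1 (0.0626) or no filter (0.0619).

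In the other direction, Meis2, a homeobox factor, went from 1.73, 0.700 and 1.86 FPKM to 4.87, 6.35 and 5.08 FPKM in the control and was at 1.20, 2.59 and 1.01 FPKM in the knockout at day 3, after 2.88, 2.57 and 3.85 FPKM at day 0 (difference -2.13, SE 0.33, adjusted p = 0.0135), and the call was lost without a filter (0.0901). Gja1, the gap junction protein connexin 43, rose in both lines, to 45.0, 31.9 and 27.2 FPKM in the knockout and 83.5, 82.6 and 103 FPKM in the control (difference -1.63, SE 0.26, adjusted p = 0.0152). That call was lost without knockout day 0 replicate 2 (0.0537), without control day 0 replicate 3 (0.0576) or without a filter (0.0665).

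**Figure D5:**
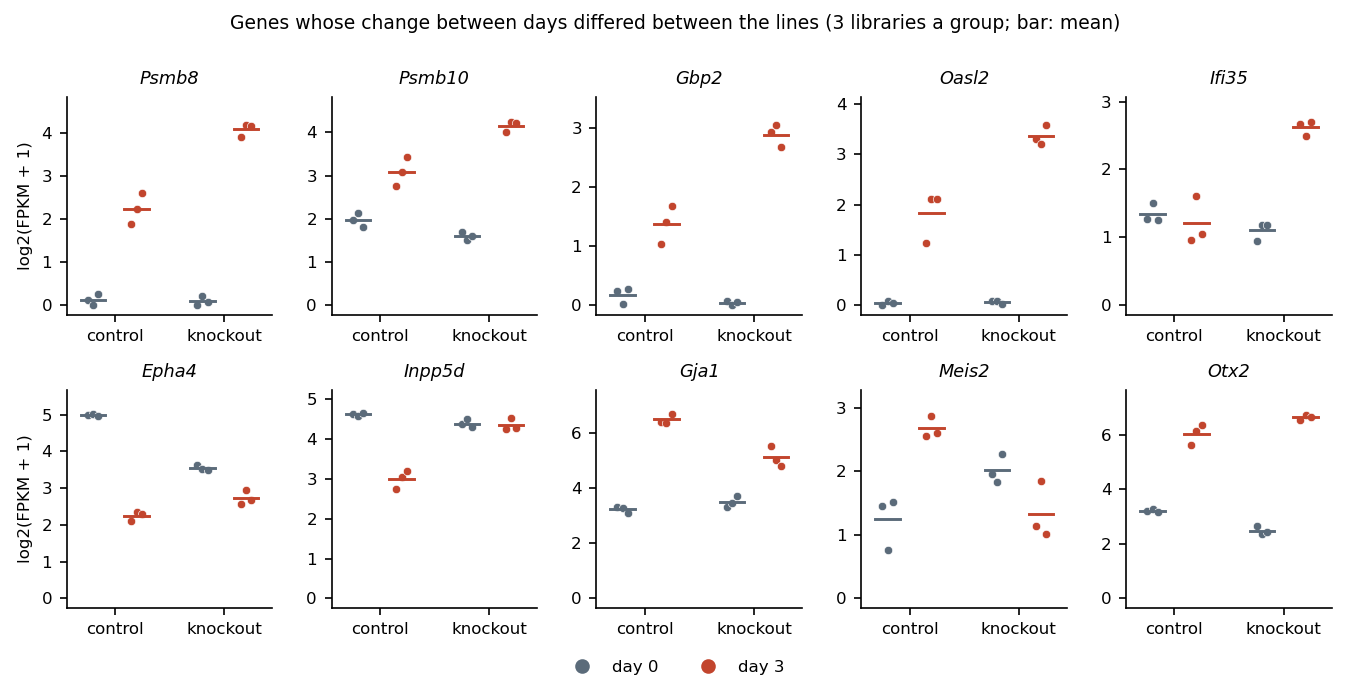
Points are single libraries of the control and knockout lines at day 0 (dark) and day 3 (red) for 10 genes whose change was called different between lines, bars are means of 3, and the y axis is log2(FPKM + 1) with a scale of its own in each panel. Psmb8 and Gbp2 end higher in the knockout, Inpp5d stays level in the knockout and falls in the control, and Gja1 ends higher in the control.

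The later days of the knockout line place day 3 in its course, as levels that were not tested because each day is a table of its own. Mean levels of Fgf5 were 47.7 FPKM at day 3, 89.4 FPKM at day 5 and 2.14 FPKM at day 12, while Dnmt3b was highest at day 3, 559 FPKM, with 318 FPKM at day 5. T, at 0.256 FPKM on day 3, was at 125 FPKM on day 5, and Mixl1 went from 0.406 to 16.6 FPKM. Nanog was at 44.9 FPKM on day 3, 92.1 FPKM on day 5 and 22.6 FPKM on day 8. Psmb8 was highest at day 3, 16 FPKM, and Gbp2 at day 5, 21.8 FPKM.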

How the data were processed

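RNA from 36 libraries (2 lines, 6 days, 3 libraries each) was measured, of which 6 form the comparison and 6 controls its counterpart. The deposited FPKM values per gene were made with TopHat and Cufflinks on mm9, per the submitters' processing notes; versions, filters and whether days were normalized together are not given in the sources used here. FPKM holds no counts, so no interval for counting error was computed. Tables were joined on gene ID. Genes with a mean FPKM of 1 or more were tested on log2(FPKM + 1) with limma 3.58.1 (R 4.3.3; trend, two-sided, Benjamini-Hochberg, threshold 0.05), for the knockout over 6 libraries and for the control and the interaction over 12. Summaries used Python 3.11.15 and pandas 2.3.3. Named genes were the 15 highest and 15 lowest changes, up to 5 per list, a hand-written panel and up to 10 interaction effects in either direction; other list members were named after their values were seen. Members and lists were chosen with earlier results of these data known. With 50 higher-expressed genes changed per size in simulated data, the knockout fit recovered 78% of changes of 1 and 96% of 2 (log2). Promoters came from RefSeq, GRCm38.p6. An exact permutation test of 3 against 3 libraries cannot go below 0.1. Alternatives covered scaling, pseudocount, filter, replicate block, all libraries and leaving out each library. Some list members are not reported here by name.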

Additional observations from a re-analysis of the deposited data

Results flagged for a closer look

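Flagged here are 16 genes whose change from day 0 to day 3 differed between the lines. They passed the interaction test (limma, adjusted p under 0.05) and had at least 5 FPKM in 1 group. They are the largest differences, at most 10 in either direction, so 16 does not count every gene that met this rule. The difference, knockout minus control on the log2 scale, was 1.91 for Epha4, 1.87 for Psmb8, 1.67 for 4930500J02Rik, 1.66 for Ifi35, 1.64 for Gbp2, 1.58 for Inpp5d and -2.13 for Meis2, all called whichever of the 12 libraries was left out. Gja1, at -1.63, was called in 10 of 12 such fits. Rnf213, at 1.5, was called in 7, Dppa3, at 1.785, and Frmd4b, at -1.20, in 5, and Nqo1, at 1.78, in 4. Oasl2, at 1.525, and the small nucleolar RNA SNORD36, at -3.84, were called in 3, Eid1, at -1.08, in 2, and Slc39a8, at -1.41, in 1.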

How the results depend on the processing

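Depth and scale limit these results: absolute depth is unknown and the days are separate tables. The fit recovered 26% of simulated knockout changes of 0.5 (log2) and 42% of simulated line differences of 1. The simulation changed 50 genes at each size, none of them low, and varied neither depth nor scale. Recovery in the real data, with far more genes called, can differ. No named gene was called in the opposite direction under these alternatives. The balance of all knockout calls did turn with the scale. Genes higher at day 3 were 41.3% of the calls as deposited and 51.6% with equal sums. The median change of all genes went from -0.07 to 0.03 between these 2 settings. The median of the cell cycle list went from -0.03 to 0.05 after rescaling. For the knockout comparison, 1487 genes were higher when the mean had to reach 5 FPKM, fewer genes being tested, and leaving out 1 library gave 4707 to 6041 calls, 2016 to 2382 higher and 2662 to 3887 lower. Of the values of named genes in it, 2752 kept their call, 70 lost it and 1 gained it. Rescaling moved the median of 7 of 40 gene lists by more than the spread between libraries, with no change of direction in those 7. For the line difference (68 calls, 59 higher, 9 lower) the cause of each shift was not tested. Rescaling gave 367, 204 and 163, and equal sums 403, 266 and 137. A pseudocount of 0.1 gave 4 lower. No filter gave 8, 6 and 2, a mean of 5 FPKM 30, 28 and 2, and all 36 libraries 246, 205 and 41. Leaving out 1 library gave 8 to 215, 7 to 121 and 1 to 94. Replicate numbers do not pair the samples. After subtracting each gene's mean within its day, day 0 and day 3 knockout libraries of the same number correlated at -0.0458, 0.0952 and 0.163. Only number 3 matched itself best. With a replicate block the knockout comparison had 5816 calls and the line difference 95, 29 of them lower; a block by day and number across lines, chosen after seeing the data, gave 39, 30 of them higher.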

Other observations

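A few genes were listed at 0 in some libraries beside high values in others of the same group. Macf1 was at 0, 0 and 70.6 FPKM in the knockout at day 0, and Nav2 at 17.1, 0 and 17.2 FPKM in the knockout at day 3.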
